A study of Mus musculus with 8 samples.

Results

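The 31 genes described here encode the receptors for glutamate, the transporters that load it into synaptic vesicles, and the scaffold proteins that hold the receptors at excitatory synapses. They were taken by gene symbol from a table of read counts for 55291 mouse genes, and all 31 passed the filter on low counts, which left 19470 genes for testing. They fall into 4 AMPA receptor subunits, 5 kainate receptor subunits, 7 NMDA receptor subunits, 1 delta receptor, 6 metabotropic receptors, 3 vesicular glutamate transporters and 5 postsynaptic scaffolds. The counts come from the lumbar spinal cord of 8 male C57BL/6J mice, each of which carried the SOD1G93A transgene, a mutant human SOD1 that causes motor neuron loss, and 1 Cx3cr1Cre allele (CreERT2, a Cre recombinase that acts only in the presence of tamoxifen). In 4 mice (E1776, E5231, E5248 and E5568; SOD1G93A Agerfl/fl Cx3cr1Cre/+, called *Ager*-deleted) both alleles of *Ager*, which encodes RAGE, a cell surface receptor for advanced glycation end products, were floxed. In the other 4 mice (E5386, E5642, E6578 and E6732; SOD1G93A *Ager*+/+ Cx3cr1Cre/+, called Cre controls) *Ager* was wild type. All 8 received tamoxifen, at 12 weeks according to the sample labels, which also give the age of the mice as 120 days, whereas the study's text gives another age for tamoxifen and places the tissue at end-stage disease. *Cx3cr1* drives Cre in microglia and related macrophages, so the deletion was directed to cells other than the neurons that carry most of the transcripts described here. The question was whether the RNA of the excitatory synapse differed in the cord when microglia lacked *Ager*.

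Glutamate released by interneurons, by descending axons and by sensory axons excites motor neurons through ion channel receptors that open when glutamate binds. AMPA receptors carry most of the fast current, kainate receptors shape release and give slower currents, and NMDA receptors pass calcium once the cell is depolarized. Metabotropic receptors signal through G proteins, and astrocytes carry some of them. Excess glutamate can injure motor neurons, and calcium entry through AMPA receptors that lack the edited *Gria2* subunit is a textbook route of such injury. The RNA in a piece of cord reflects both the number of cells and the RNA in each cell, so fewer cells of a type and less RNA per cell cannot be told apart in these data.

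Library totals on genes lay between 31148047 and 40324897 counts, and 3 counts of a gene, taken as the detection floor, correspond to between 0.0744 and 0.0963 CPM (counts scaled to the size of the library). This floor covers counting error only. Levels below are CPM after TMM normalization (the trimmed mean method of edgeR). Values of single mice are given in the order E1776, E5231, E5248, E5568 for the *Ager*-deleted group and E5386, E5642, E6578, E6732 for the Cre control group, and each log2 fold change is *Ager*-deleted over Cre control with its standard error (SE). *Ager*, the targeted gene, stood at 0.889, 1.51, 1.02 and 1.34 CPM in the *Ager*-deleted group, against 1.53, 2.22, 2.18 and 2.41 CPM in the Cre control group. *Ager* values did not overlap between the genotypes, and its log2 fold change of -0.81 (SE 0.22) was not called by the exact test of edgeR (adjusted p = 0.252). The Cre controls E5386 and E5642 carried summed skeletal muscle marker levels of 1305 and 1928 CPM, against 71.8 to 102 CPM in the other 6 mice, and the Cre control E6732 carried 553 CPM of liver markers, against 1.31 to 2.46 CPM in the others. Schwann cell markers summed to 3.47 CPM in the Cre control E5386 and to 200 to 744 CPM in the other 7 mice. Neuronal markers were present in every mouse, with pan-neuronal sums of 4203 to 4840 CPM in *Ager*-deleted mice and 4260 to 4968 CPM in Cre controls. Motor neuron markers summed to 94.0 to 150 CPM in *Ager*-deleted mice and to 105 to 162 CPM in Cre controls, and none of the 7 was at 0 in any mouse.

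None of the 31 genes differed between the genotypes at an adjusted p of 0.05. The exact test of edgeR called 14 of 19470 genes (0.0719%), 12 of them lower in *Ager*-deleted mice (0.0616%). Its adjusted p was 1 for each of the 31, and none had an unadjusted p under 0.05 (829 genes, 4.26%, in the whole table). *Grik5* had the lowest unadjusted p of the exact test, 0.0650. The quasi-likelihood test of edgeR called 1 gene (0.00514%). Here the adjusted p of the 31 ran from 0.742 to 0.988, and 3 of the 31 (9.68%) had an unadjusted p under 0.05, against 6.71% of all genes. DESeq2 and limma-voom also called none of the 31 and gave 3 each at an unadjusted p under 0.05. The share of all genes was 6.11% in limma-voom. In DESeq2 it was 3.72% of the 38113 genes with a p-value. DESeq2 was run without the filter on low counts, so its share is not on the same genes. The 3 in the quasi-likelihood test were *Gria1*, *Grik4* and *Grik5*, all higher in *Ager*-deleted mice (all genes higher at that level, 2.68%). For 2 of the 31 (6.45%), *Grik4* and *Grik5*, the values of the 2 groups were fully separate, again with *Ager*-deleted mice higher, and 3.88% of all genes did not overlap in either direction (1.97% with *Ager*-deleted mice higher).

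The differences were small. The mean of the *Ager*-deleted mice was within 10% of the mean of the Cre controls for 23 of the 31 genes. The log2 fold changes ran from -0.13 for *Slc17a7* to 0.26 for *Grin2d*, and their median SE was 0.11. The fold change was above 0 for 23 genes (74.2%) and below 0 for 8, which were *Gria2*, *Gria3*, *Grik2*, *Grin2a*, *Grin2b*, *Grm5*, *Slc17a7* and *Homer1*. Of all genes tested, 52% were above 0. The median over the 31 genes was 0.069, against 0.0069 over all genes. By class, the median was -0.0012 for AMPA receptors, 0.14 for kainate receptors, 0.13 for NMDA receptors, 0.075 for metabotropic receptors, 0.029 for the vesicular transporters and 0.086 for the scaffolds. The median over the 31 genes moved with single mice, to 0.043 without E5642, 0.044 without E5248 and 0.12 without E5231, and it was 0.031, with 18 of 31 genes above 0, without E5386 and E5642, the 2 mice with skeletal muscle transcripts.

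**Figure D1:**
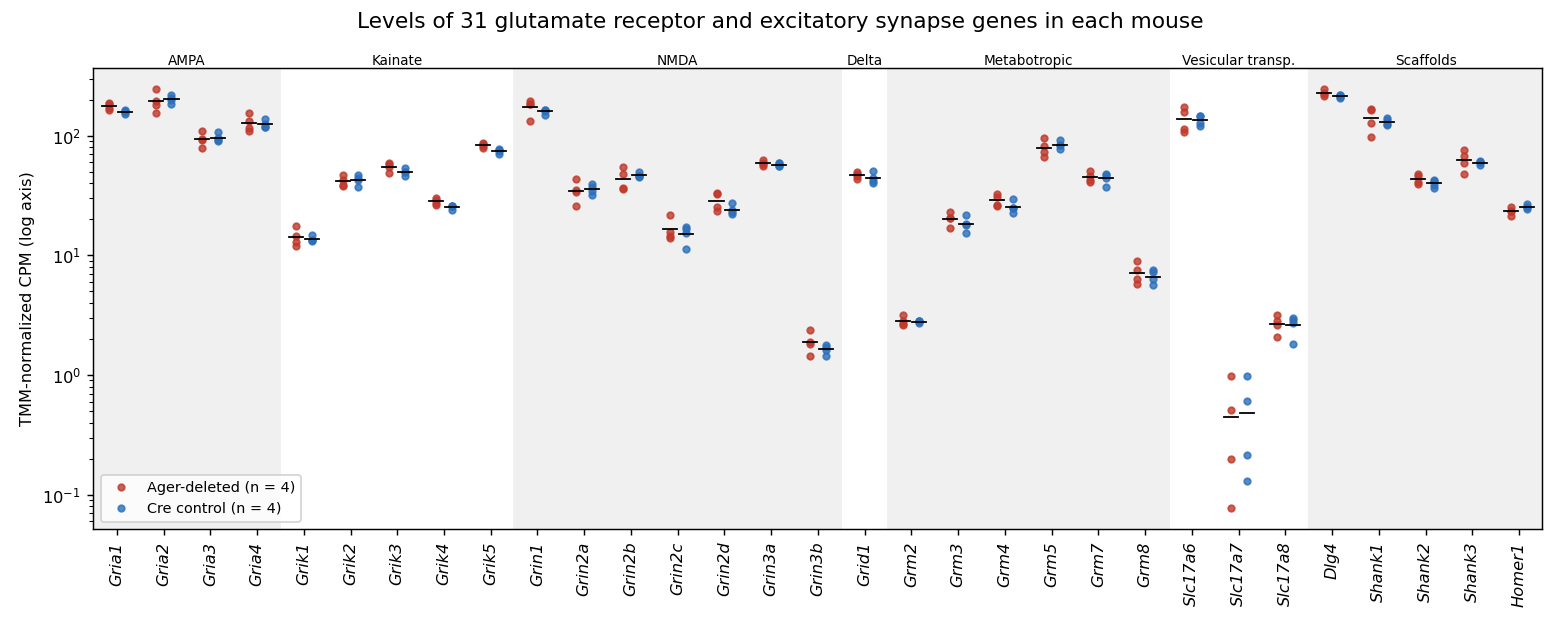
TMM-normalized CPM (log axis) of each of the 31 genes in each mouse, with 4 *Ager*-deleted mice in red, 4 Cre controls in blue and black bars for the group means. Levels spanned from 0.0775 CPM (*Slc17a7*) to 248 CPM (*Gria2*), and the genotypes lay close together within each gene.

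**Figure D2:**
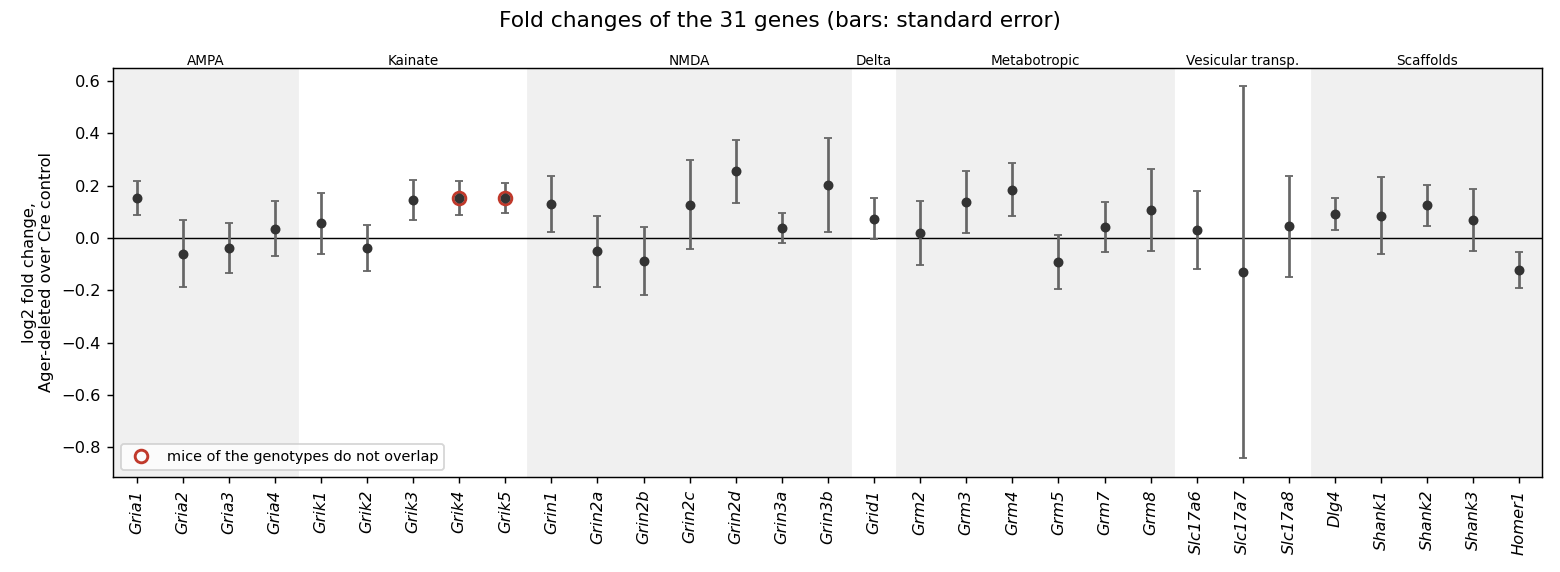
The log2 fold change of each gene, *Ager*-deleted over Cre control (4 mice each), with bars for the SE from the quasi-likelihood fit. Red circles mark *Grik4* and *Grik5*, the 2 genes without overlap between the genotypes, and the longest bar is that of *Slc17a7*, the gene with the lowest counts.

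Over all exons, *Gria1* and *Gria4* averaged 27.8 and 20.1 CPM per kb in the 8 mice, the highest levels of the 23 receptor genes, and *Grin1* came next with 17.3. With the longest transcript as the length, *Grin1* was first with 39.1 CPM per kb, ahead of *Gria1* with 30.3 and *Gria4* with 23.3. *Gria1*, which encodes GluA1, a subunit of calcium-permeable AMPA receptors, led the AMPA class. It stood at 164, 170, 186 and 190 CPM in the *Ager*-deleted group. The Cre control group had 153, 158, 166 and 160 CPM. The lowest *Ager*-deleted mouse, E1776, lay below the highest Cre control, E6578, and the other 3 *Ager*-deleted mice lay above every Cre control. *Gria1* had a log2 fold change of 0.15 (SE 0.064; exact test of edgeR, p = 0.0719, adjusted p = 1, and quasi-likelihood test, p = 0.0361, adjusted p = 0.742).

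*Gria2* encodes GluA2, the subunit that keeps calcium out of AMPA receptors, and its values in every mouse are given because of that role, a choice made after they were seen. It stood at 181, 155, 248 and 195 CPM in the *Ager*-deleted group, against 219, 201, 183 and 208 CPM in the Cre control group. The *Ager*-deleted mice held both the lowest value (E5231) and the highest (E5248), so the Cre controls lay within their range. Its log2 fold change was -0.059 (SE 0.13). *Gria3* (GluA3) averaged 94.0 ± 12.6 CPM (SD, n = 4 *Ager*-deleted mice) and 96.5 ± 7.49 CPM in Cre controls, and *Gria4* (GluA4) 128 ± 19.9 and 125 ± 9.94 CPM. Neither difference exceeded the spread between mice. The directions of *Gria2*, *Gria3* and *Gria4* turned when single mice were left out.

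The permeability of AMPA and kainate receptors depends on 1 codon in the pore, a glutamine codon in the genome that the enzyme ADAR2 can edit in the RNA to read as arginine. Editing is best known in *Gria2*, where it is nearly complete in adult neurons, and it also occurs in *Grik1* and *Grik2*. Counts per gene do not read it, so these data say nothing of how much of each transcript was edited. The genomic stretch around that codon is shown for the 9 AMPA and kainate subunits because it is the place where their levels bear on calcium entry. Each line gives 30 bases of the coding strand, 5′ to 3′, on GRCm38 (the assembly that mm10 names) from GENCODE M21 transcripts, with the codon in capitals.

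Gria1: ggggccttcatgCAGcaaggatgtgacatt
Gria2: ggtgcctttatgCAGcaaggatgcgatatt
Gria3: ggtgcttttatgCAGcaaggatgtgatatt
Gria4: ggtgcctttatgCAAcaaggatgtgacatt
Grik1: ggagctctcatgCAGcaaggatcggagctg
Grik2: ggagctctcatgCAGcaaggttctgagctc
Grik3: ggctccctgatgCAGcaaggatctgaactg
Grik4: ggaggcttcatgCAGcaaggctccactatt
Grik5: ggtggcttcatgCAGcagggctcggagatc

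The codon lies at chr3:80706911-80706913 (reverse strand) in *Gria2*, at chr11:57243094-57243096 (forward) in *Gria1* and at chr7:25022497-25022499 (reverse) in *Grik5*, in each case within a coding exon. It is CAG in 8 of the 9 genes and CAA in *Gria4*. Over the 30 bases, pairs of AMPA subunits shared 26 to 28 bases and pairs of kainate subunits 18 to 27, whereas an AMPA and a kainate subunit shared 20 to 23. Reads over such stretches differ between any pair of these genes by at least 2 bases, and how the counting treated reads that map to more than 1 gene is not given in the sources used here.

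The kainate receptors held the 2 genes whose mice did not overlap. *Grik5* encodes GluK5, a high-affinity subunit that forms channels only together with GluK1, GluK2 or GluK3, and it was the most abundant kainate subunit per kilobase. It stood at 87.6, 85.1, 82.5 and 78.6 CPM in the *Ager*-deleted group. The Cre control group had 78.3, 70.9, 76.4 and 74.9 CPM. Every *Ager*-deleted mouse lay above every Cre control, although the nearest pair, E5568 and E5386, were almost level. Its log2 fold change was 0.15 (SE 0.057; exact test of edgeR, p = 0.0650, adjusted p = 1, and quasi-likelihood test, p = 0.0239, adjusted p = 0.742).

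*Grik4* encodes GluK4, the other high-affinity subunit. It stood at 27.3, 26.5, 30.4 and 29.2 CPM in the *Ager*-deleted group, against 25.7, 24.1, 26.0 and 26.1 CPM in the Cre control group. The *Ager*-deleted mice again lay above all Cre controls, with the nearest pair (E5231 and E6732) close together and E5642 lowest, as it was for *Grik5*. *Grik4* had the same log2 fold change as *Grik5*, 0.15 (SE 0.065; exact test of edgeR, p = 0.103, adjusted p = 1, and quasi-likelihood test, p = 0.0391, adjusted p = 0.742).

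The low-affinity subunits form channels by themselves. *Grik3* (GluK3) averaged 55.2 ± 4.71 CPM (SD, n = 4 *Ager*-deleted mice) and 49.9 ± 3.12 CPM in Cre controls, with a log2 fold change of 0.14 (SE 0.076; edgeR quasi-likelihood test, adjusted p = 0.771). *Grik1* (GluK1) averaged 14.3 ± 2.40 and 13.7 ± 0.697 CPM, and *Grik2* (GluK2) 41.7 ± 3.98 and 42.9 ± 3.92 CPM. *Grik1*, *Grik2* and *Grik3* overlapped between the genotypes. Summed per kilobase over the 5 subunits, kainate receptor RNA came to 30.6 to 33.8 CPM per kb in *Ager*-deleted mice and 27.8 to 30.4 CPM per kb in Cre controls, and it was the only one of the 7 classes in which the sums of the genotypes did not overlap. *Grik5* held 50.0% of this sum in *Ager*-deleted mice and 49.1% in Cre controls, and *Grik4* 14.7% and 14.4%. The sum is therefore not independent of the 2 genes that did not overlap. Its nearest pair was E5568 with 30.58 and E6732 with 30.38 CPM per kb. No test was made of the sum.

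The unadjusted results for *Gria1*, *Grik4* and *Grik5* changed with the mice in the fit. Without E5642, the lowest mouse for *Grik4* and *Grik5* and 1 of the 2 with skeletal muscle transcripts, none of the 31 genes had an unadjusted quasi-likelihood p under 0.05, and the share of all genes was 3.82%, down from 6.71%. Their log2 fold changes were then 0.14 for *Gria1*, 0.12 for *Grik4* and 0.12 for *Grik5*. There were also none among the 31 without E5386 and E5642 together (4.22% of all genes) and with the skeletal muscle score as a covariate (3.64%), whereas there were 2 without E5386 (7.95%) and 5 without E5231 (7.53%). In the fit without E5386 and E5642, the log2 fold change was 0.11 for *Gria1*, 0.11 for *Grik4* and 0.13 for *Grik5*, and the part that skeletal muscle transcripts have in these values was not tested further.

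*Neto1* and *Neto2* encode the auxiliary subunits that slow the closing of kainate receptors and set where they sit at the synapse. *Neto2* stood at 38.0, 39.4, 43.5 and 36.4 CPM in the *Ager*-deleted group, against 44.9, 46.5, 46.1 and 52.8 CPM in the Cre control group. Every *Ager*-deleted mouse lay below every Cre control, the opposite direction to *Grik4* and *Grik5*. Of all genes tested, 1.91% were lower in this way. *Neto2* had a log2 fold change of -0.28 (SE 0.076; exact test of edgeR, p = 0.00598, adjusted p = 0.616, and quasi-likelihood test, p = 0.00454, adjusted p = 0.705). *Neto1*, given beside it after its values were seen, averaged 23.0 ± 4.11 CPM (SD, n = 4 *Ager*-deleted mice) and 25.1 ± 1.85 CPM in Cre controls, and its mice overlapped.

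**Figure D3:**
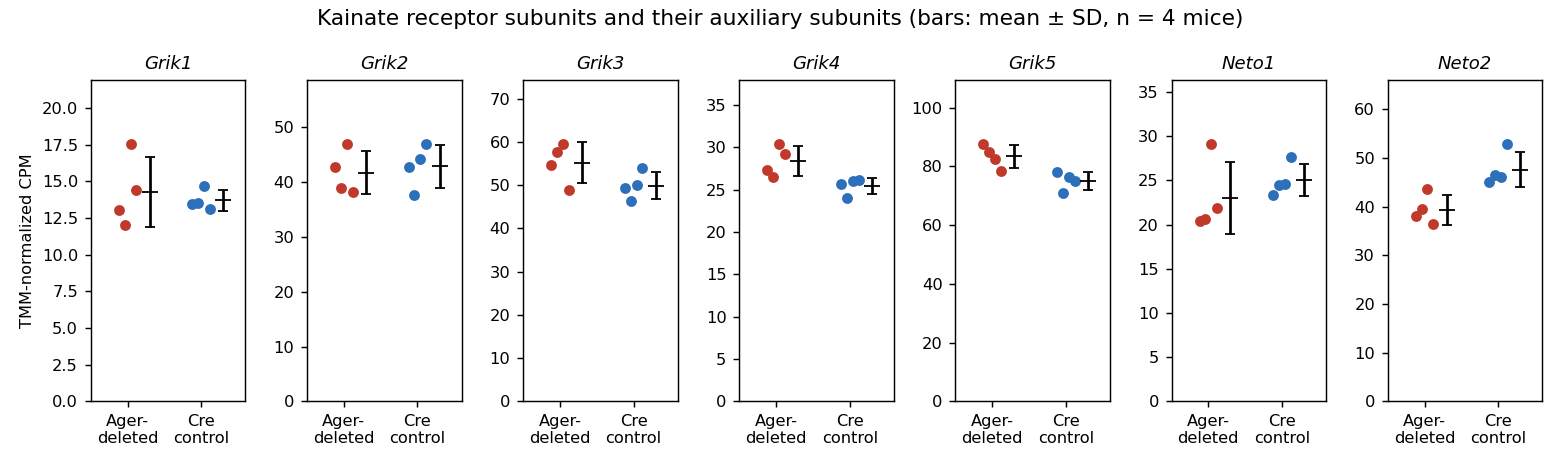
TMM-normalized CPM (each axis from 0) of the 5 kainate receptor subunits and of *Neto1* and *Neto2* in 4 *Ager*-deleted mice (red) and 4 Cre controls (blue), with black bars for the mean ± SD. *Grik4* and *Grik5* were higher in every *Ager*-deleted mouse than in any Cre control, *Neto2* was lower in every one, and the others overlapped.

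The promoters are shown for *Grik4* and *Grik5* because these were the 2 genes that separated the genotypes in the same direction. Each line gives 250 bases before to 50 bases after the start of the gene, 5′ to 3′ on the gene's strand, from RefSeq (GRCm38.p6). The window is chr9:42944322-42944621 for *Grik4* and chr7:25072320-25072619 for *Grik5*, both on the reverse strand. Capitals mark the Sp1 box GGGCGG, searched on both strands, so that it also appears as CCGCCC.

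Grik4: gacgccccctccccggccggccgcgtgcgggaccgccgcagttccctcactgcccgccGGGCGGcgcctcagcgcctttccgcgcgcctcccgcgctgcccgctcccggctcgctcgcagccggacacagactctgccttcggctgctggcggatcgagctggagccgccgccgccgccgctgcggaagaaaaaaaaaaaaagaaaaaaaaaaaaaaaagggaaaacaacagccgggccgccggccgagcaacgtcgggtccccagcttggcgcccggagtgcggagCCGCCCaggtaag
Grik5: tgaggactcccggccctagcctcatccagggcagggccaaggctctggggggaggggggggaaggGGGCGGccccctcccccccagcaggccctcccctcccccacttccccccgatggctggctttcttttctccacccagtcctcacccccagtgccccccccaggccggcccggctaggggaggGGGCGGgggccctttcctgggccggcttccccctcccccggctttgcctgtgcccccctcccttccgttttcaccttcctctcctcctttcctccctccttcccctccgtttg

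Each of these promoters holds 2 such boxes, and none of the other motifs searched (the cyclic AMP response element TGACGTCA, TATAAA, the E-box CACGTG and the RE1 fragment TTCAGCACC, each on both strands). Promoters were listed for 20 of the 31 genes, 28 promoters in all, of which 14 (50.0%) held a Sp1 box, against 35.88% of all 32544 promoters of the same length. Among these are 2 overlapping windows of *Grm7* that share the same single box, which counts for both. The 28 promoters were rich in GC, with a median of 62.0% against 53.0% for all promoters, and held a median of 12.5 CpG against 7.0. TATAAA was in 1 of the 28 (3.57%, against 13.57%), TGACGTCA in none (1.8% of all) and CACGTG in 1 (3.57%, against 7.17%). TTCAGCACC was in 1, a promoter of *Grm2* (3.57%, against 0.37%). A match is a match of letters only, and no binding was measured.

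Among the NMDA receptor subunits, *Grin1*, which encodes the GluN1 subunit present in every NMDA receptor, had the highest level per kilobase. It stood at 186, 134, 197 and 183 CPM in the *Ager*-deleted group, against 164, 150, 164 and 161 CPM in the Cre control group. E5231 was the lowest of the 8 mice and the other 3 *Ager*-deleted mice were the highest, so the genotypes overlapped through 1 mouse. For *Grin1* the log2 fold change was 0.13 (SE 0.11; edgeR quasi-likelihood test, adjusted p = 0.839), and it ranged from 0.070 without E5248 to 0.24 without E5231.

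Of the GluN2 subunits, which bind glutamate and set how long the channel stays open, *Grin2a* and *Grin2b* had fold changes below 0 and *Grin2c* and *Grin2d* above 0. *Grin2d* (GluN2D), the slowest of the 4, had the largest fold change of the 31 genes, and for that reason its mice are given here, a choice made after the values were seen. It stood at 32.4, 23.7, 33.4 and 25.5 CPM in the *Ager*-deleted group, against 27.3, 22.9, 22.1 and 24.0 CPM in the Cre controls. E1776 and E5248 were above all Cre controls, while E5231 and E5568 lay among them. This gave a log2 fold change of 0.26 (SE 0.12; exact test of edgeR, p = 0.0673, adjusted p = 1, and quasi-likelihood test, p = 0.0592, adjusted p = 0.750). *Grin2d* overlaps *Kdelr1* on the other strand and the strand setting of the counting is not given in the sources used here, so its counts may include reads of that gene.

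*Grin2a* (GluN2A) averaged 34.6 ± 7.11 CPM (SD, n = 4 *Ager*-deleted mice) and 35.9 ± 3.16 CPM in Cre controls, and *Grin2b* (GluN2B) 43.9 ± 9.43 and 46.6 ± 2.35 CPM. The ratio of *Grin2a* to *Grin2b* in CPM, a ratio that rises as synapses mature, was 0.796 ± 0.134 and 0.768 ± 0.0442, and the mice overlapped. *Grin2c* (GluN2C), a subunit known from glia and cerebellar granule cells, averaged 16.5 ± 3.66 and 15.1 ± 2.74 CPM. The glycine-binding GluN3 subunits reduce calcium entry. *Grin3a* (GluN3A) averaged 59.0 ± 2.84 and 57.4 ± 2.11 CPM, and *Grin3b* (GluN3B), which is known from motor neurons, 1.89 ± 0.384 and 1.64 ± 0.155 CPM. *Grin3b* had 50 to 94 counts per mouse and overlaps *Tmem259* on the other strand. In log2(CPM + 0.5) the SD of *Grin2d* was 0.24 in *Ager*-deleted mice and 0.13 in Cre controls, close to its fold change or below it. For the other 6 NMDA receptor genes the log2 fold change was smaller than the SD of the *Ager*-deleted mice.

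*Grid1* encodes the delta receptor GluD1, a synapse organizer that binds cerebellins and does not open to glutamate. It stood at 45.7, 43.5, 49.7 and 47.8 CPM in the *Ager*-deleted group, against 41.8, 40.7, 50.7 and 44.3 CPM in the Cre control group. The Cre controls held both the lowest and the highest mouse. The log2 fold change of *Grid1* was 0.075 (SE 0.079), and it was -0.030 without E5386 and E5642. With 1 mouse left out it ranged from 0.028 without E5642 to 0.14 without E6578.

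Of the metabotropic receptors, *Grm5*, which encodes the group I receptor mGluR5 that is coupled to calcium release in neurons and astrocytes, had the highest level per kilobase over all exons, and *Grm7* with the longest transcript (10.6 against 10.2 CPM per kb). *Grm5* stood at 73.8, 66.4, 95.0 and 81.5 CPM in the *Ager*-deleted group, against 83.1, 78.2, 84.5 and 91.5 CPM in the Cre control group. E5231 and E1776 were the lowest mice and E5248 the highest, and the Cre controls lay between them. *Grm5* had a log2 fold change of -0.091 (SE 0.10), which ranged from -0.19 without E5248 to -0.015 without E5231 when each mouse was left out. The 2 group II receptors dampen release. *Grm2* (mGluR2) averaged 2.84 ± 0.255 CPM (SD, n = 4 *Ager*-deleted mice) and 2.80 ± 0.0694 CPM in Cre controls, and *Grm3* (mGluR3), which astrocytes also carry, 20.3 ± 2.45 and 18.4 ± 2.68 CPM. Of the group III receptors, presynaptic inhibitors of release, *Grm4* (mGluR4) averaged 29.1 ± 3.33 and 25.6 ± 2.84 CPM, with a log2 fold change of 0.19 (SE 0.10; edgeR quasi-likelihood test, adjusted p = 0.779). That of *Grm4* was 0.12 without E5248, 0.090 without E5386 and E5642 and 0.083 with the skeletal muscle score as a covariate. *Grm7* (mGluR7) averaged 45.3 ± 4.51 and 44.0 ± 4.78 CPM, and *Grm8* (mGluR8) 7.18 ± 1.44 and 6.65 ± 0.860 CPM. All 6 overlapped between the genotypes.

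The vesicular glutamate transporters mark the neurons that release glutamate. *Slc17a6* (VGLUT2), the transporter of spinal excitatory interneurons, carried nearly all of the class. It stood at 114, 108, 175 and 157 CPM in the *Ager*-deleted group, against 121, 128, 147 and 146 CPM in the Cre control group. The *Ager*-deleted mice fell into a low and a high pair on either side of the Cre controls. Its log2 fold change was 0.029 (SE 0.15). *Slc17a8* (VGLUT3) averaged 2.67 ± 0.446 CPM (SD, n = 4) and 2.60 ± 0.546 CPM.

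*Slc17a7* (VGLUT1) was the least abundant of the 31 genes, and its mice are given, by a choice made after the values were seen, because its level came down to the floor. It is the transporter of corticospinal and large sensory axons, whose cell bodies lie outside the cord. It stood at 0.991, 0.512, 0.198 and 0.0775 CPM in the *Ager*-deleted group, against 0.985, 0.216, 0.130 and 0.608 CPM in the Cre controls, with 3 to 39 counts per mouse. Within each genotype the mice differed more than the genotypes did, and the log2 fold change of -0.13 had an SE of 0.71.

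Of the scaffolds, *Dlg4*, which encodes the main scaffold of the postsynaptic density and anchors NMDA receptors, had the highest level per kilobase. It stood at 230, 215, 246 and 224 CPM in the *Ager*-deleted group, against 219, 213, 219 and 208 CPM in the Cre control group. E5231 lay among the Cre controls and the other 3 *Ager*-deleted mice lay above them. *Dlg4* had a log2 fold change of 0.092 (SE 0.060; edgeR quasi-likelihood test, adjusted p = 0.813), and without E5248 it was 0.057. The Shank proteins join the receptor scaffolds to Homer and actin. *Shank1* averaged 140 ± 32.7 CPM (SD, n = 4 *Ager*-deleted mice) and 131 ± 8.72 CPM in Cre controls, *Shank2* 43.8 ± 3.90 and 40.1 ± 2.83 CPM, and *Shank3* 62.7 ± 11.9 and 59.8 ± 2.12 CPM. *Homer1*, which links Shank to group I metabotropic receptors, averaged 23.4 ± 1.67 and 25.4 ± 0.973 CPM, with a log2 fold change of -0.12 (SE 0.069; edgeR quasi-likelihood test, adjusted p = 0.792). *Homer1* stayed below 0 when each mouse was left out, between -0.16 and -0.077.

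The make-up of each class was compared as the share of each subunit in the summed CPM per kilobase of exon. In the AMPA class, *Gria1* held 41.1 ± 2.88% (SD, n = 4 *Ager*-deleted mice) and 38.2 ± 0.536% in Cre controls, and *Gria2* held 17.3 ± 1.54% and 18.9 ± 1.92%. *Gria4* was next after *Gria1*, with 28.3 ± 1.04% and 28.7 ± 1.31%, and *Gria3* was lowest, with 13.3 ± 0.867% and 14.2 ± 0.624%. With the longest transcript in place of all exons, *Gria2* held 20.2 ± 1.63% and 21.8 ± 2.18%, so the absolute share depends on the length used. The ratio of *Gria1* to *Gria2* in CPM was 0.930 ± 0.144 and 0.790 ± 0.0855, and the mice overlapped.

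In the kainate class, *Grik5* held 50.0 ± 2.06% (SD, n = 4) and 49.1 ± 1.04% and *Grik4* held 14.7 ± 1.02% and 14.4 ± 0.105%. *Grik2* held 9.73 ± 0.561% in *Ager*-deleted mice and 10.9 ± 0.605% in Cre controls, where only E5248 of the *Ager*-deleted mice lay within the range of the Cre controls. The ratio of *Grik5* to *Grik2* in CPM was 2.01 ± 0.179 and 1.76 ± 0.128, and that of *Grik4* to *Grik2* was 0.683 ± 0.0573 and 0.597 ± 0.0342. The mice overlapped for both ratios, and no test was made of them. In the NMDA class, *Grin1* held 51.9 ± 2.40% and 51.3 ± 1.14%, and *Grin3a*, the next, held 14.0 ± 1.61% and 14.6 ± 0.634%. *Slc17a6* held 97.3 ± 1.13% and 97.5 ± 0.119% of the vesicular transporters. Among the metabotropic receptors *Grm5* held 27.3 ± 1.14% and 30.3 ± 1.63%, and its neighbour *Grm7* held 27.3 ± 1.01% and 27.4 ± 1.58%, a difference between the 2 genes within their spread in *Ager*-deleted mice. With the longest transcript in place of all exons, *Grm5* held 27.5 ± 1.11% and *Grm7* 30.2 ± 1.07% in *Ager*-deleted mice, and 30.4 ± 1.54% and 30.3 ± 1.64% in Cre controls. For each subunit of these 5 classes the shares of the genotypes overlapped.

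**Figure D4:**
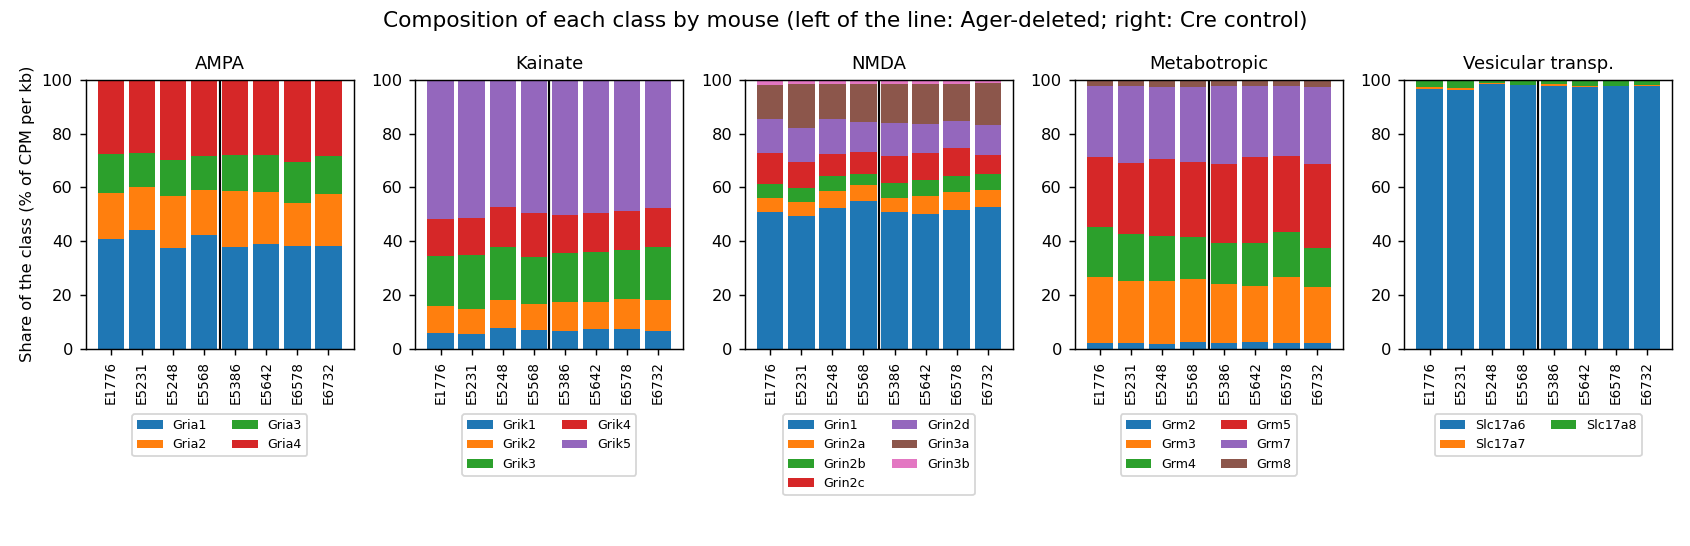
Share of each subunit in its class (% of summed CPM per kb of exon) in each mouse, with the 4 *Ager*-deleted mice left of the line and the 4 Cre controls right of it. *Gria1*, *Grik5*, *Grin1* and *Slc17a6* held the largest shares of the AMPA, kainate, NMDA and vesicular transporter classes in every mouse of both genotypes.

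The *Ager*-deleted mice differed more among themselves than the Cre controls did. On the scale of log2(CPM + 0.5), the SD was larger in *Ager*-deleted mice for 27 of the 31 genes (87.1%), against 63.4% of all genes. It was larger for 26 without E5231 (58.4% of all genes) and for 23 without E5248 (55.1% of all genes). The exceptions were *Grid1*, *Grm3*, *Grm7* and *Slc17a8*. E5248 was the highest of the 8 mice for 19 of the 31 genes (61.3%), against 17.3% of all genes, with 3 of 4 AMPA, 3 of 5 kainate, 5 of 7 NMDA and 5 of 6 metabotropic receptor genes among them. E5231 was the lowest for 10 genes (32.3%, against 15.7% of all genes), among them *Gria2*, *Gria3* and *Gria4*. E5642 was also the lowest for 10 (32.3%, against 12.0%), among them 4 of 5 kainate and 4 of 6 metabotropic receptor genes.

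Some markers of other cells were also at their highest or lowest in E5248 and E5231, and others were not. In E5248 the 4 inhibitory neuron markers summed to 917 CPM, the highest of the 8 mice (629 to 809 CPM in the others). Of these 4, 3 were at their highest in E5248. The 8 microglia markers summed to 1213 CPM there, the lowest of the 8 mice, with 7 of the 8 markers at their lowest. The 6 astrocyte markers summed to 9592 CPM in E5248, also the lowest, but only 3 of the 6 were at their lowest. *Gfap* alone gave 6643 CPM of that sum. In E5231 the inhibitory neuron sum was the lowest, although only 1 of the 4 markers, *Slc6a5*, was at its lowest there. The microglia sum in E5231, 2067 CPM, was the highest, with 6 of the 8 markers at their highest. By genotype, microglia markers spanned 1213 to 2067 CPM in *Ager*-deleted mice and 1553 to 1759 CPM in Cre controls, astrocyte markers 9592 to 14379 and 11353 to 13207 CPM, and inhibitory neuron markers 629 to 917 and 648 to 788 CPM. Of the 8 microglia markers, 1 (12.5%, against 3.88% of all genes) did not overlap. This was *P2ry12*, lower in every *Ager*-deleted mouse (log2 fold change -0.32, SE 0.088; exact test of edgeR, p = 0.00406, adjusted p = 0.507). Of the 8, 3 were above 0 and 5 below. None of the markers in these 3 lists was at 0 in any mouse. The pan-neuronal sum was highest in E6578 (4968 CPM, against 4840 CPM in E5248) and lowest in E5231 (4203 CPM), and the motor neuron sum was 115 CPM in E5248 and 130 CPM in E5231, within the range of the others. The 4 Schwann cell markers summed to 744 CPM in E5248 and 743 CPM in E5642, and to 264 CPM in E5231 and 200 CPM in E1776, and 1 of them, *Pmp2*, was at 0 in at least 1 mouse. The part of these markers in the levels of the 31 genes was not tested.

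**Figure D5:**
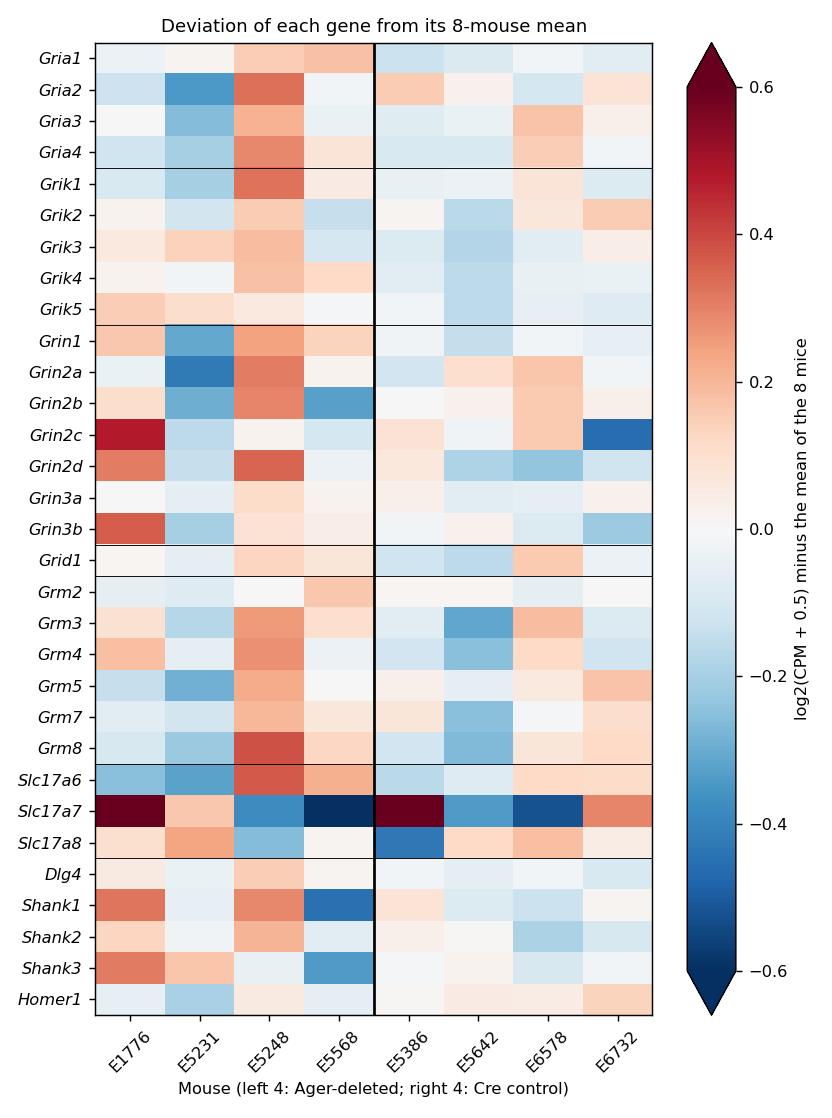
Log2(CPM + 0.5) of each gene in each mouse minus the mean of the 8 mice, red for above and blue for below, with the color scale ending at 0.6 in both directions. The column of E5248 is red for most genes and that of E5231 blue for many receptor genes, both in the *Ager*-deleted group, while the Cre controls vary less, apart from *Grid1*, *Grm3*, *Grm7* and *Slc17a8*.

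Other genes of the excitatory synapse also gave no call. Of 77 genes in 5 lists, neither test called any, 54 had a log2 fold change above 0 and 23 below, the median was 0.077, and an unadjusted p under 0.05 was found for 3 by the exact test (4.26% of all genes) and for 8 by quasi-likelihood (10.4%, against 6.71% of all genes). The mice did not overlap for 6 of them (7.79%, against 3.88% of all genes), 5 higher and 1 lower in *Ager*-deleted mice. Auxiliary subunits of AMPA and kainate receptors, which carry the receptors to the synapse and tune their gating, held 4 of these. Of the 14 auxiliary subunits, 12 were above 0 and 2 below (median 0.13), and 5 had an unadjusted quasi-likelihood p under 0.05 (35.7%, against 6.71% of all genes), 4 of them higher (2.68% of all genes). These 4, *Cacng3*, *Cacng8*, *Gsg1l* and *Shisa9*, all had their lowest value in E5642, 1 of the 2 mice with skeletal muscle transcripts. No values of this list without that mouse are given here. *Cacng3*, a transmembrane AMPA receptor regulatory protein, stood at 15.1, 15.5, 15.6 and 16.3 CPM in the *Ager*-deleted group, against 13.5, 10.99, 14.1 and 13.5 CPM in the Cre control group. Its mice did not overlap, with E5642 the lowest, and its log2 fold change was 0.26 (SE 0.092; exact test of edgeR, p = 0.0383, adjusted p = 1, and quasi-likelihood test, p = 0.0173, adjusted p = 0.742). The other 2 auxiliary subunits higher in every *Ager*-deleted mouse, named after their values were seen, were *Cacng7* and *Cacng8*, and the 1 lower was *Neto2*. *Cacng7*, also lowest in E5642, had a log2 fold change of 0.11 (SE 0.057; exact test of edgeR, p = 0.149, and quasi-likelihood test, p = 0.0704, adjusted p = 0.755). That of *Cacng8* was 0.22 (SE 0.096; exact test of edgeR, p = 0.0865, and quasi-likelihood test, p = 0.0425, adjusted p = 0.742).

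Of 21 other genes of the postsynaptic density and receptor trafficking, 16 were above 0 and 5 below, with a median of 0.072. The mice did not overlap for *Dlg3*, a scaffold related to *Dlg4*, with a log2 fold change of 0.14 (SE 0.058; exact test of edgeR, p = 0.0996, adjusted p = 1, and quasi-likelihood test, p = 0.0367, adjusted p = 0.742). Of 16 genes of adhesion across the synapse and receptor clustering, such as neuroligins, neurexins and cerebellins, 9 were above 0 and 7 below (median 0.032), and all overlapped. Of 15 genes of transmitter release, 14 were above 0 and 1 below (median 0.094), and the mice did not overlap for *Stx1a*, a membrane syntaxin of vesicle fusion, with a log2 fold change of 0.17 (SE 0.076; exact test of edgeR, p = 0.126, adjusted p = 1, and quasi-likelihood test, p = 0.0480, adjusted p = 0.742). The 11 genes of glutamate uptake and recycling, most of them active in astrocytes, had 3 above 0 and 8 below and a median of -0.018, against 0.0069 and 52% above 0 over all genes. None of the 11 had an unadjusted p under 0.05 in either edgeR test or groups that did not overlap.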

How the data were processed

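Lumbar spinal cord RNA of 8 mice was sequenced from stranded poly(A) libraries. The authors trimmed the reads (Trimmomatic 0.36 in the submitters' processing notes), aligned to mm10 with STAR 2.7.3a, and deposited raw counts per gene from featureCounts (Subread 1.6.3) on GENCODE M25. The authors also deposited log2 TMM CPM values for 19470 genes, used only as a check (recomputed within 4.78e-06). The strand setting of the counting is not given in the sources used here.

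Counts were filtered with filterByExpr (minimum 10), normalized by TMM and tested over all genes in edgeR 4.0.16 (R 4.3.3) with the exact test and the quasi-likelihood test, which gave the SE. Adjustment was by Benjamini-Hochberg over all genes tested, with a threshold of 0.05. DESeq2 1.42.0, limma-voom (limma 3.58.1), other normalizations, filters, dispersions, an adjusted p of 0.10, a skeletal muscle covariate and leaving out mice were alternatives. The tests were checked on simulated data with 200 changed genes.

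Mice were grouped by label, and p-values measure the spread between mice. The genes and lists were chosen with earlier results of these data known. Values in every mouse are given for a gene with an unadjusted p under 0.05 in either edgeR test, with groups that do not overlap, or with the highest level per kilobase in its class, and other genes of the pathway are named where called or not overlapping, at most 2 per list. *Cacng7*, *Cacng8*, *Gsg1l*, *Shisa9* and *Neto1* were named beyond this rule, as were the cell type markers *P2ry12*, *Gfap*, *Slc6a5* and *Pmp2*. The values of *Gria2*, *Grin2d* and *Slc17a7* in every mouse were also given beyond it. Positions and exon lengths are from GENCODE M21 and promoters from RefSeq. An annotated gene on the other strand overlaps 14 of the 31 genes.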

Additional observations from a re-analysis of the deposited data

Results flagged for a closer look

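Among the 4 Cre controls, 1 value of *Grm2* stood apart from the others. E6578 had 2.698 CPM and the other 3 had 2.821 to 2.844 CPM, so that the gap was 0.838 of the whole range, above Dixon's critical value for 4 samples. The range itself was small, and *Grm2* had 83 to 124 counts per mouse. In all, 62 groups of values of the 31 genes were tested in this way and 1 stood out, where chance gives about 1 in 20.

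The summed liver markers stood apart in the Cre control E6732, with 553 CPM against 1.31 to 2.18 CPM in the other 3 Cre controls, and the gap was 0.998 of the range. This was 1 of 20 groups of marker sums tested. None of the 31 genes is a liver marker, and E6732 was the highest mouse for 2 of them and the lowest for 3.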

How the results depend on the processing

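None of the 31 genes was called under any setting, and the median over them stayed above 0 in every setting, between 0.043 and 0.12 when 1 mouse was left out. Of the 31 genes, 14 kept their direction under all settings run and 17 changed it in at least 1, and no change of normalization or filter was among those. The number of genes called over the whole table, 14 in the exact test, was 48 at an adjusted p of 0.10, 8 with CPM above 1 in at least 4 samples, 78 with common and tagwise dispersions, 27 in DESeq2, 1 in limma-voom and 67 without E5386 and E5642, and 3 to 98 when 1 mouse was left out (3 without E5231, 98 without E6578). Without E5386 and E5642 the log2 fold change turned to -0.048 for *Gria4*, -0.030 for *Grid1*, -0.029 for *Grm7*, -0.042 for *Grm8*, -0.091 for *Slc17a6*, 0.24 for *Slc17a7* and -0.100 for *Slc17a8*. With the skeletal muscle score as a covariate it turned to 0.0060 for *Gria2*, -0.034 for *Gria4*, -0.026 for *Grid1*, -0.018 for *Grm7*, -0.023 for *Grm8*, -0.061 for *Slc17a6*, 0.11 for *Slc17a7* and -0.094 for *Slc17a8*. The cause was not tested. With 1 mouse left out, the genes whose direction turned ranged as follows: *Gria2* -0.20 to 0.036, *Gria3* -0.12 to 0.037, *Gria4* -0.064 to 0.10, *Grik1* -0.057 to 0.13, *Grik2* -0.10 to 0.0083, *Grin2a* -0.17 to 0.066, *Grin2b* -0.21 to 0.0013, *Grin2c* -0.039 to 0.20, *Grm2* -0.043 to 0.053, *Grm7* -0.038 to 0.086, *Grm8* -0.022 to 0.20, *Shank1* -0.014 to 0.22, *Shank3* -0.033 to 0.18, *Slc17a6* -0.10 to 0.13, *Slc17a7* -0.89 to 0.46, *Slc17a8* -0.10 to 0.15. Of those that kept their direction, *Grik3* was 0.079, *Grm3* 0.014 and *Shank2* 0.20 without E5386 and E5642. Without E5248, *Grin3a* was 0.0084, *Grm3* 0.073 and *Shank2* 0.076. *Grm3* was also 0.054 without E5642 and 0.23 without E6578. *Grin3b* was 0.068 without E1776, and without E5231 *Grin3b* was 0.31 and *Grin3a* 0.064. The filter on CPM above 1 gave no value for *Slc17a7*. The level per kilobase depends on the exon length used, which moved 40 of the 50 mean shares by more than 1 SD. No paired analysis was possible because the mice carry only their own IDs and share no replicate number. Depth limits *Slc17a7*, with 3 to 39 counts per mouse, and *Grin3b*, with 50 to 94.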
